A study of Mus musculus with 9 samples.

Results

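The genes described here are 37 components of the unfolded protein response and the integrated stress response, chosen by gene name from the probes of a mouse expression array on which 21995 genes were tested. They fall into 3 arms: 15 genes of folding and degradation in the endoplasmic reticulum (ER), 9 sensors and other regulators, and 13 targets of the transcription factor ATF4, most of them genes of amino acid supply and one-carbon metabolism. The array carried 49 probes for them, of which 48 passed the filter on dim probes, and 36 of the 37 genes were tested. The remaining gene, Slc7a11, the light chain of the cystine and glutamate exchanger, had 1 probe, which was not well above background on any of the 9 arrays.

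When unfolded proteins gather in the ER, 3 sensors in its membrane respond. IRE1, encoded by Ern1, splices the mRNA of the transcription factor XBP1; ATF6 is cut and its released part enters the nucleus; and PERK, encoded by Eif2ak3, phosphorylates the initiation factor eIF2. XBP1 and ATF6 raise the genes of chaperones, disulfide isomerases and ER degradation. Phosphorylated eIF2 lowers general translation but lets ATF4 be translated, and because other kinases sense amino acid shortage, viral RNA or haem shortage and phosphorylate the same factor, that branch is called the integrated stress response. ATF4 raises genes of amino acid synthesis and uptake and, with CHOP, encoded by Ddit3, genes that adjust or end the response. Both splicing of Xbp1 and translation of Atf4 are controlled after transcription, so an array of total mRNA levels does not measure them.

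All samples were C2C12 cells, 1 mouse myoblast line that forms multinucleated myotubes. For 72 h they received vehicle or 1,25 (OH)2-vitamine D3, the hormonal form of vitamin D, at 1 nM or at 10 nM. Each group had 3 samples, which the series' design text calls biological replicates. The title of the series names myotubes, but when treatment started in their formation is not given in the sources used here. As the samples are bulk RNA of a culture, fewer cells of a type and less RNA per cell cannot be told apart. Levels are the log2 of the array's processed signal minus the 75th percentile of that array, so a level of 0 is the brightness of the spot at that percentile, and a log2 change of 1 is a change by a factor of 2. Levels of different probes cannot be set against each other. A gene is said to have risen or fallen where limma's adjusted p was under 0.05.

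No spot was saturated, and the 75th percentile of the 9 arrays lay between 2826 and 3389 intensity units. The array of vehicle replicate 3 stood apart: 6124 of its spots (13.8%) were marked as non-uniform, against 8 to 56 on the other arrays, its median signal was 660 against 216 to 315, and 96.4% of its spots were well above background against 67.1% to 79.2%. All 36 genes had a value on it. Of 10 skeletal muscle markers, 9 were well above background on all arrays, and their summed level ran from 259 to 295 in vehicle, 327 to 341 at 1 nM and 340 to 349 at 10 nM, in multiples of the 75th percentile. All 8 markers of cycling cells fell at both doses, with a median log2 change of -4.17 at 1 nM and -4.79 at 10 nM, and their summed level ran from 35.5 to 40.4 in vehicle, 2.01 to 2.31 at 1 nM and 1.28 to 1.35 at 10 nM. That shift moves with the same groups as every result below, and its part in them was not tested. The summed level of 6 macrophage markers ran from 21.2 to 25.6, 18.1 to 19.4 and 16.3 to 21.5, that of 6 adipocyte markers from 0.56 to 1.36, 1.78 to 1.9 and 4.36 to 4.76, and that of 3 endothelial markers from 3.55 to 5.92, 3.81 to 5.21 and 4.54 to 6.25, in the same order of groups. These sums weigh bright genes most. The median log2 change of the adipocyte markers was -0.32 at 1 nM and -0.07 at 10 nM. Single genes ran from -1.11 to 6.94 and from -1.45 to 7.67, and 2 of the 6 were well above background on all arrays. The medians were 0.35 and 0.31 for muscle and -0.29 and -0.22 for macrophage markers. Single muscle markers ran from -1.11 to 0.68 at 1 nM and from -1.25 to 1.02 at 10 nM. For endothelial markers the medians were -0.14 and 0.01, with largest changes of 2.73 and 2.78. The part of these markers in the results was not tested.

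The promoters of the chaperone arm and of the ATF4 arm differ in the control elements they hold, which is why stretches of them are shown first. RefSeq windows from 250 bases before to 50 after the start site (assembly GRCm38.p6) were found for 33 of the 37 genes, all but Manf, Atf6, Cars and Slc7a5. The ER stress element was searched on both strands as CCAAT, 9 bases of any kind and CCACG: a binding site for NF-Y, a spacer, and a site for ATF6 and XBP1. It was found in 8 of 14 ER folding and degradation genes (57.1%), in 0 of 8 regulators and in 0 of 11 ATF4 targets, beside 37 of 27025 mouse genes (0.137%). In the stretches below, read 5′ to 3′ on the strand of the gene, capitals mark the element, which reads as its reverse complement in Calr, Creld2 and the second stretch of Hsp90b1.
Hspa5 (chr2:34772012-34772056, plus strand): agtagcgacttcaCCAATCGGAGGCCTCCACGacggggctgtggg
Hsp90b1, first (chr10:86705625-86705669, minus strand): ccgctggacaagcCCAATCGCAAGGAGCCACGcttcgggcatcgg
Hsp90b1, second (chr10:86705520-86705564, minus strand): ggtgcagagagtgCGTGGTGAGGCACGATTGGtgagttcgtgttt
Calr (chr8:84847062-84847106, minus strand): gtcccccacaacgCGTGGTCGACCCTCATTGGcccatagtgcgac
Canx (chr11:50325787-50325831, minus strand): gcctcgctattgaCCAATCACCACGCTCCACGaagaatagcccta
Pdia6 (chr12:17266478-17266522, plus strand): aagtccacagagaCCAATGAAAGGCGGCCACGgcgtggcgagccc
Creld2 (chr15:88819507-88819551, plus strand): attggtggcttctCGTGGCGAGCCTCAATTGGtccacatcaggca

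The other holders were Dnajc3 and Syvn1. The element lay between base -212 (Hsp90b1) and base -26 (Syvn1), counted from the start site. Its CCAAT part alone was in 14 of the 14 ER folding and degradation windows, 5 of 8 regulators and 7 of 11 ATF4 targets, beside 41.1% of all genes. Its CCACG part alone was in 13, 4 and 7 genes of these arms, beside 35.5% of all genes. The shorter core TGACGTG of the unfolded protein element was in Hspa5 only among the members, beside 2.22% of all genes.

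The C/EBP-ATF element, searched on both strands as TGATGNAA, is a composite site to which ATF4 binds with a C/EBP partner. It was found in 5 of 11 ATF4 targets (45.5%), in 1 of 8 regulators (Atf3) and in 1 of 14 ER folding and degradation genes (Herpud1), beside 4.51% of all genes. Capitals mark it in the stretches below. In Chac1, Trib3, Vldlr, Atf3 and the second site of Slc7a11 it reads as its reverse complement. In Trib3 it lies after the start site, in bases 15 to 22 of the transcript.
Asns (chr6:7693214-7693243, minus strand): tcccagccacaTGATGAAActtcccgcacg
Slc7a11 (chr3:50443642-50443690, minus strand): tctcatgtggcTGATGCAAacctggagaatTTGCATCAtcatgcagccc
Chac1 (chr2:119351038-119351067, plus strand): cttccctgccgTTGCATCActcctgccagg
Trib3 (chr2:152344028-152344057, minus strand): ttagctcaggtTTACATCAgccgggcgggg
Vldlr (chr19:27216809-27216838, plus strand): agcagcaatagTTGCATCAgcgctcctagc
Atf3 (chr1:191183425-191183454, minus strand): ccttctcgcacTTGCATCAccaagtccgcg

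A pair of vitamin D receptor half-sites, AGTTCA and again AGTTCA after 3 bases of any kind, was in 0 of the 27025 genes' windows. A match is a description of letters in a window, and a missing match says only that these letters are not there.

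**Figure D1:**
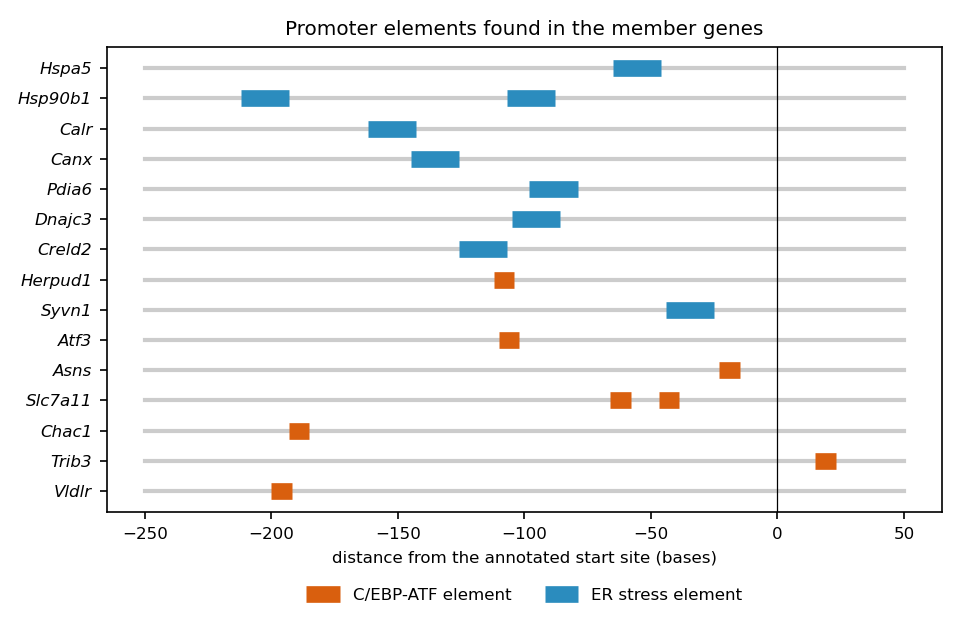
Position of the ER stress element (blue) and the C/EBP-ATF element (orange) in the promoter windows of the 15 member genes that hold either, with distance from the annotated start site in bases on the horizontal axis and 1 gene per grey line. The blue marks lie in ER folding and degradation genes and the orange marks mostly in ATF4 targets, with the mark of Trib3 after the start site.

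Most of the genes that changed were lower in the treated cells. At 1 nM, 19 of the 36 genes tested passed the test (52.8%), 4 higher and 15 lower, where 23.6% of all genes tested passed, 11.8% higher and 11.8% lower. Without 1 nM replicate 3 the count at 1 nM was 12, where 3506 of all 21995 genes passed. At 10 nM, 24 of 36 passed (66.7%), 5 higher and 19 lower, where 30.1% of all genes passed, 15.4% higher and 14.7% lower. The treated and vehicle arrays did not overlap for 26 of the 36 genes at 1 nM, where 42.4% of all genes did not overlap, and for 28 at 10 nM, where the share was 43.8%. The median log2 change was -0.25 at 1 nM and -0.30 at 10 nM, beside -0.09 and -0.11 over all genes tested. Both comparisons use the same 3 vehicle samples.

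These directions depend on the scaling in part. When each array was scaled by its median in place of its 75th percentile, the median change of all genes moved to 0.38 at 1 nM and 0.40 at 10 nM. Against it, ER folding and degradation stood at 0.22 and 0.38, the regulators at 0.43 and 0.56 and the ATF4 targets at 0.20 and 0.18. The genes called then numbered 1 (Vldlr) and 3 (Vldlr, Atf3 and Ppp1r15a), all higher, so every fall of the 36 genes lost its call. Of all 21995 genes, 1513 and 2532 were called under that scaling, at both doses a larger share than of the 36. Of all calls over the array, 62.1% and 67.1% were higher, against 49.9% and 51.2% with the 75th percentile. Vehicle replicate 3 has the highest array median. Without it, median scaling gave all-gene medians of 0.08 and 0.10. ER folding and degradation then stood at -0.14 and -0.08, the regulators at 0.13 and 0.15 and the ATF4 targets at -0.18 and -0.21. Of the 36 genes, 8 were called at each dose, 4 higher and 4 lower, where 3636 and 5452 of all genes were. The share of the 36 was above that of all genes at 1 nM and below it at 10 nM. With the 75th percentile, leaving out vehicle replicate 3 left 19 of the 36 called at 1 nM and 22 at 10 nM. Of all genes, 5570 and 7155 were called there.

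**Figure D2:**
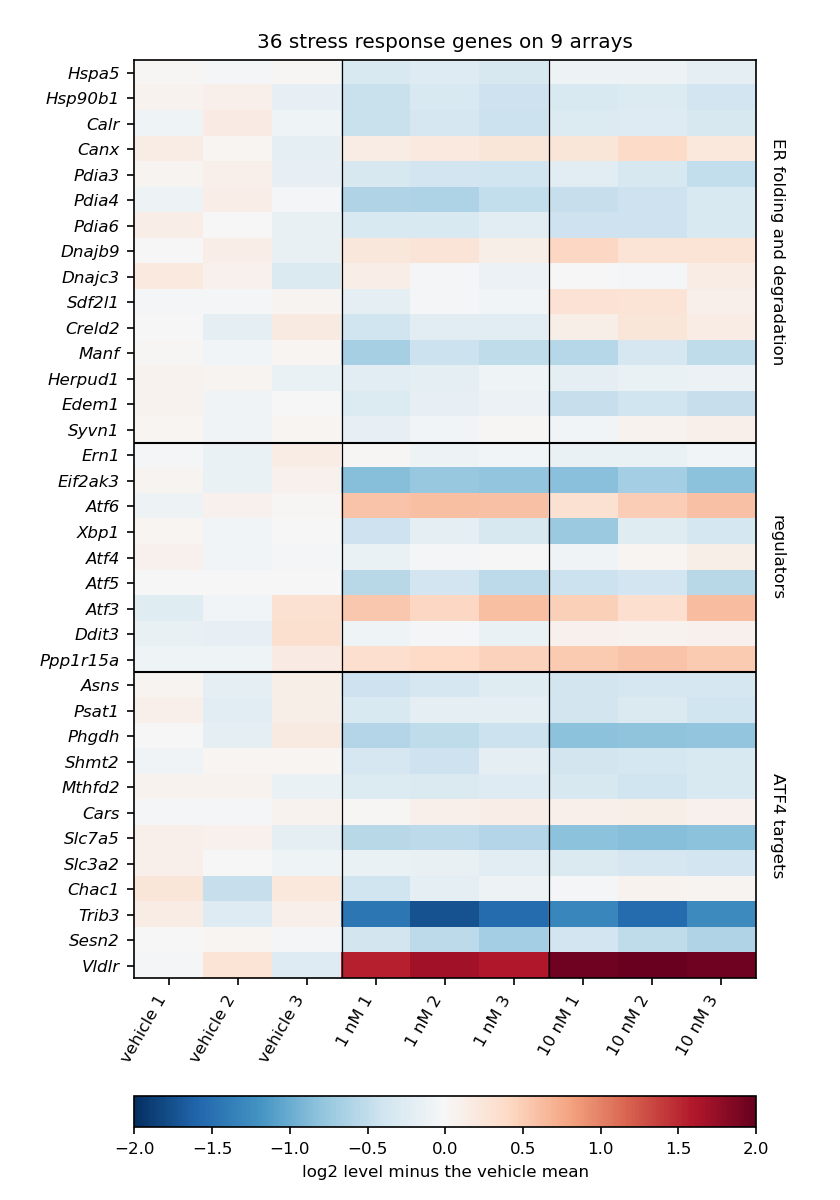
Level of the 36 genes tested on each of the 9 arrays, as log2 level minus the mean of the vehicle arrays; rows are genes in their 3 arms, columns are arrays, blue is lower and red higher, and the colour scale ends at -2 and 2. Trib3 is lowest and Vldlr highest in all 6 treated arrays, and most of the remaining treated cells of the map are pale blue.

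In the arm of ER folding and degradation, 6 of 15 genes fell and 0 rose at 1 nM, and 7 fell and 1 rose at 10 nM. Of all genes, 11.8% fell and 11.8% rose at 1 nM, and 14.7% fell and 15.4% rose at 10 nM. The median change of the arm was -0.27 and -0.15, beside -0.09 and -0.11 over all genes, so at 10 nM the 2 were close. Hsp90b1, Calr, Pdia3, Pdia4 and Manf fell at both doses, Hspa5 at 1 nM, and Pdia6 and Edem1 at 10 nM, with changes of at most 1.49-fold. Dnajb9 rose at 10 nM.

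Pdia4, a protein disulfide isomerase, had log2 levels of -0.66, -0.43 and -0.62 in vehicle, -1.18, -1.19 and -1.06 at 1 nM, and -1.03, -0.98 and -0.87 at 10 nM. All 6 treated arrays lay below all 3 vehicle arrays. It fell by 0.57 ± 0.09 (SE, n = 3 per group) at 1 nM (1.49-fold, limma adjusted p = 0.00248) and by 0.39 ± 0.09 at 10 nM (1.31-fold, adjusted p = 0.0116). Manf, a secreted and ER-resident factor that protects cells under ER stress, had levels of 2.41, 2.33 and 2.43 in vehicle, 1.72, 1.95 and 1.88 at 1 nM, and 1.82, 2.06 and 1.88 at 10 nM. Here too no treated array reached the vehicle arrays. The fall was 1.45-fold at 1 nM (log2 -0.54 ± 0.09, adjusted p = 0.0044) and 1.39-fold at 10 nM (log2 -0.47 ± 0.09, adjusted p = 0.00633). Both genes kept the call at both doses whichever array was left out, but not under array median scaling (Pdia4 -0.08 and 0.14, Manf -0.05 and 0.06), nor in that scaling without vehicle replicate 3 (Pdia4 -0.50 and -0.28, Manf -0.42 and -0.31).

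Hspa5 encodes BiP, the main HSP70 chaperone of the ER, which also holds the sensors inactive. Its levels were 5.32, 5.25 and 5.32 in vehicle, 5, 5.04 and 4.98 at 1 nM, and 5.19, 5.20 and 5.12 at 10 nM. The groups did not overlap, with the 10 nM arrays between the other 2 groups. It fell 1.22-fold at 1 nM (log2 -0.29 ± 0.06, adjusted p = 0.00982), and at 10 nM the log2 change was -0.13 ± 0.06 (adjusted p = 0.144). The call at 1 nM ended with quantile-normalized values (log2 -0.20, adjusted p = 0.127) and in the submitters' table of log2 values (log2 -0.20, adjusted p = 0.142).

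Hsp90b1, the ER form of HSP90 known as GRP94, fell by 0.39 at 1 nM and by 0.32 at 10 nM (both SE 0.09, adjusted p = 0.0155 and 0.0276). Calr, the lectin chaperone calreticulin, fell by 0.41 and 0.29 (SE 0.09, adjusted p = 0.0121 and 0.0399). Pdia3, the disulfide isomerase that works with calreticulin on glycoproteins, fell by 0.37 and 0.35 (SE 0.10, adjusted p = 0.0354 and 0.0351). For all 3 genes the treated arrays lay below the vehicle arrays at both doses. These calls were less firm than those of Pdia4 and Manf: at 1 nM, Calr lost its call without 1 nM replicate 3 (adjusted p = 0.0516), Hsp90b1 without vehicle replicate 1 or 1 nM replicates 1 or 3 (adjusted p of 0.0526 to 0.0611), and Pdia3 without any of 6 arrays (up to 0.118). At 10 nM each lost it without any of 6 or 7 arrays. All 3 lost it under the slide block, where slide stands for a shared scan time (adjusted p = 0.109, 0.137 and 0.0637).

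Pdia6, another disulfide isomerase, which helps switch off IRE1, had levels of 5.23, 5.09 and 4.94 in vehicle, 4.79, 4.78 and 4.85 at 1 nM, and 4.68, 4.68 and 4.79 at 10 nM. All treated arrays were below the vehicle arrays. Its change was -0.28 ± 0.08 at 1 nM (adjusted p = 0.0519), called without vehicle replicate 3 (-0.35, adjusted p = 0.0158), and it fell by 0.37 ± 0.08 at 10 nM (adjusted p = 0.0131), a call that ended without 10 nM replicate 2 (adjusted p = 0.0507). Its other 2 probes gave -0.28 and -0.38, and -0.08 and -0.13. The first of these passed at both doses (limma adjusted p over probes of 0.025 and 0.00499). The other passed at neither (0.682 and 0.485), so the probes differ in the calls at both doses.

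Edem1, a lectin that directs misfolded glycoproteins to degradation, had levels of 0.41, 0.27 and 0.36 in vehicle, 0.07, 0.19 and 0.23 at 1 nM, and -0.12, -0.05 and -0.11 at 10 nM. The 3 groups formed 3 separate ranges. It fell 1.36-fold at 10 nM (log2 -0.44 ± 0.07, adjusted p = 0.00242), whichever array was left out, while the change at 1 nM was -0.18 ± 0.07 (adjusted p = 0.108). Dnajb9, a DNAJ co-chaperone of BiP and a target of XBP1, was the gene of this arm that rose. Its levels were 0.85, 0.98 and 0.69 in vehicle, 1.07, 1.09 and 0.96 at 1 nM, and 1.25, 1.12 and 1.11 at 10 nM. The 10 nM arrays lay above all others, and 1 nM overlapped vehicle. The rise at 10 nM was 1.25-fold (log2 0.32 ± 0.09, adjusted p = 0.034) and lost its call without any of 8 arrays (up to 0.0917). Its second, dimmer probe gave 0.31 at 1 nM and 0.40 at 10 nM and passed at both doses (limma adjusted p over probes of 0.0271 and 0.00716), so the probes differ in the call at 1 nM.

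The 6 remaining genes of the arm passed the test at neither dose. Canx, the membrane lectin chaperone calnexin, had a change of 0.19 at 1 nM and 0.28 at 10 nM (adjusted p = 0.219 and 0.0714). Sdf2l1 and Creld2, an ER-resident cofactor and a disulfide isomerase-like protein, had changes of -0.10 and -0.27 at 1 nM and 0.22 and 0.17 at 10 nM. In the absence of 1 array some of these genes passed: Canx at 10 nM without vehicle replicate 1 (0.35, adjusted p = 0.0445), Sdf2l1 at 10 nM without 10 nM replicate 3 (0.28, adjusted p = 0.0492) and Creld2 at 1 nM without vehicle replicate 2 (-0.37, adjusted p = 0.0345). Dnajc3, a co-chaperone that also inhibits PERK, stood at -0.01 and 0.04, Herpud1, a part of the degradation complex, at -0.17 and -0.15, and Syvn1, its ubiquitin ligase HRD1, at -0.06 and 0.04. Of the 8 genes with an ER stress element, 3 fell at 1 nM (Hspa5, Hsp90b1 and Calr) and 3 at 10 nM (Hsp90b1, Calr and Pdia6), with median changes of -0.28 and -0.04. Of the 6 genes with a window but no such element, 2 fell at 1 nM, and 3 fell and 1 rose at 10 nM, with medians of -0.17 and -0.25.

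**Figure D3:**
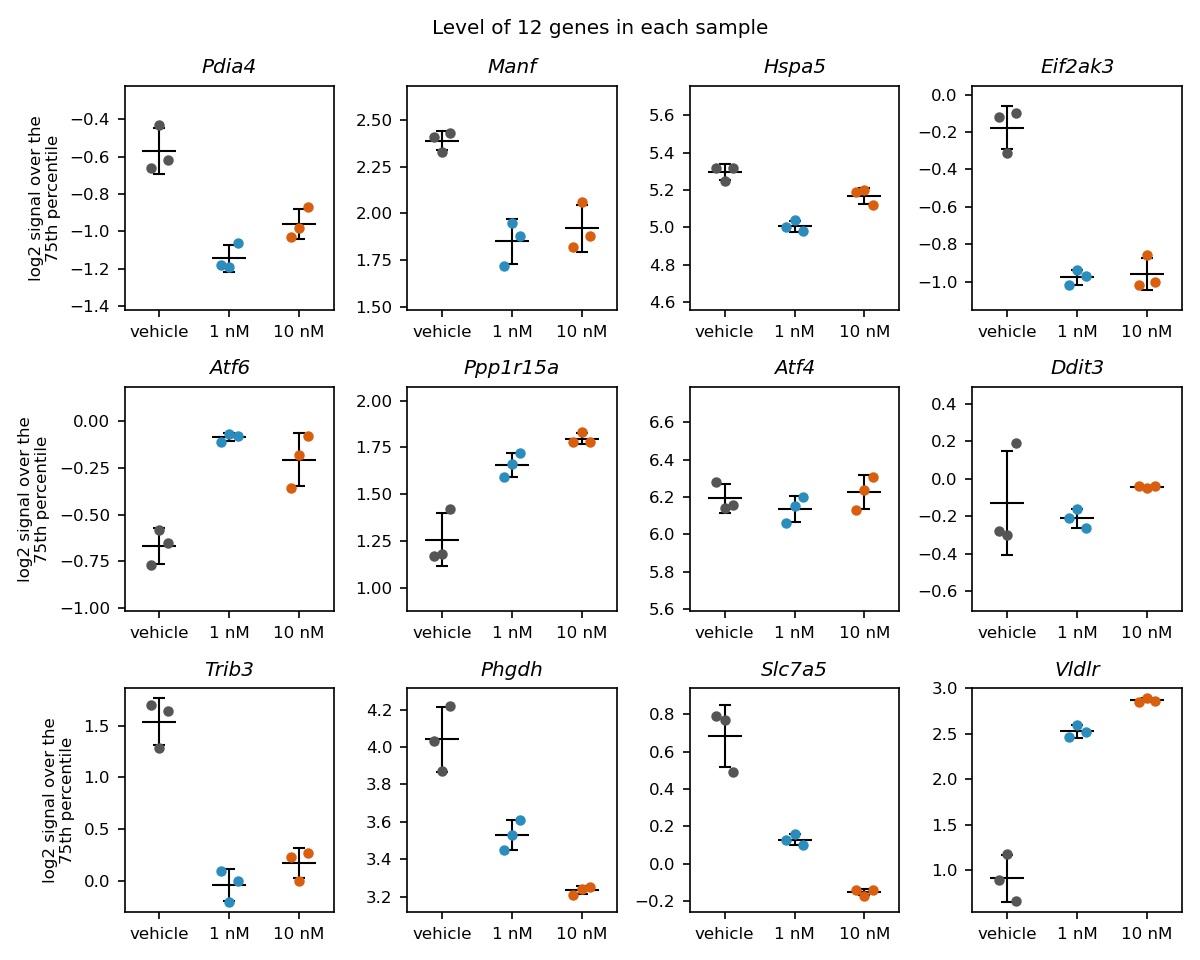
Log2 signal over the 75th percentile of 12 genes in each sample, 1 panel per gene with its own vertical axis; points are single samples, the horizontal bar is the mean and the error bar the SD of 3 samples. In Trib3, Eif2ak3, Phgdh and Slc7a5 all treated samples lie below vehicle, in Vldlr, Atf6 and Ppp1r15a above it, and in Atf4 and Ddit3 the treated samples overlap vehicle.

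The regulators moved in both directions. At 1 nM 3 of 9 rose and 2 fell, and at 10 nM 3 rose and 3 fell. In all, 23.6% and 30.1% of all genes were called at these doses. The median changes were -0.06 and 0.03, beside -0.09 and -0.11 over all genes. The sensors themselves went separate ways: PERK mRNA was lower, ATF6 mRNA higher, and IRE1 mRNA passed no test.

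Eif2ak3, the PERK kinase, had levels of -0.12, -0.31 and -0.10 in vehicle, -1.02, -0.94 and -0.97 at 1 nM, and -1.02, -0.86 and -1 at 10 nM. The 6 treated arrays lay together, well under the vehicle arrays. It fell 1.74-fold at 1 nM (log2 -0.80 ± 0.08, adjusted p = 0.000332) and 1.72-fold at 10 nM (log2 -0.78 ± 0.08, adjusted p = 0.000262). Under array median scaling the changes were -0.31 and -0.25 and not called (adjusted p = 0.525 and 0.578), and without vehicle replicate 3 in that scaling -0.66 and -0.60 (adjusted p = 0.0181 and 0.0196).

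Atf6, the sensor that becomes a transcription factor, had levels of -0.77, -0.58 and -0.65 in vehicle, -0.11, -0.07 and -0.08 at 1 nM, and -0.36, -0.18 and -0.08 at 10 nM. Every treated array was above every vehicle array. It rose 1.5-fold at 1 nM (log2 0.58 ± 0.09, adjusted p = 0.00263) and 1.38-fold at 10 nM (log2 0.46 ± 0.09, adjusted p = 0.00605). Ern1, the IRE1 kinase and nuclease, had changes of -0.04 and -0.11 (adjusted p = 0.739 and 0.344), and none of its 3 other probes passed the test.

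Xbp1 mRNA, the substrate of IRE1, had levels of 4.70, 4.61 and 4.67 in vehicle, 4.25, 4.47 and 4.33 at 1 nM, and 3.93, 4.42 and 4.31 at 10 nM. The treated arrays were below vehicle, and 10 nM replicate 1 was the lowest of all. Its change was -0.31 ± 0.13 at 1 nM (adjusted p = 0.142, or 0.0377 without 10 nM replicate 1, which enters only through the spread), and it fell by 0.44 ± 0.13 at 10 nM (adjusted p = 0.0382), with the call lost without any of 8 arrays (up to 0.0985).

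Atf4 mRNA passed the test at neither dose. Its levels were 6.28, 6.14 and 6.16 in vehicle, 6.06, 6.15 and 6.20 at 1 nM, and 6.13, 6.24 and 6.31 at 10 nM, so the groups overlapped. The changes were -0.06 (95% interval -0.24 to 0.12) and 0.03 (-0.15 to 0.21), and a second probe gave -0.17 and -0.20, not called. Ddit3, the transcription factor CHOP, had levels of -0.28, -0.30 and 0.19 in vehicle, -0.21, -0.16 and -0.26 at 1 nM, and -0.04, -0.05 and -0.04 at 10 nM. Vehicle replicate 3 was the highest array. Its changes were -0.08 (95% interval -0.38 to 0.22) and 0.09 (-0.21 to 0.39), and without vehicle replicate 3 Ddit3 passed at 10 nM (log2 0.25, adjusted p = 0.0219).

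Atf5, a relative of ATF4 that is also translated under stress, had levels of 5.05, 5.04 and 5.06 in vehicle, 4.50, 4.67 and 4.53 at 1 nM, and 4.63, 4.66 and 4.49 at 10 nM. The vehicle arrays were nearly equal and all treated arrays lower. It fell 1.4-fold at 1 nM (log2 -0.49 ± 0.07, adjusted p = 0.00262) and 1.37-fold at 10 nM (log2 -0.46 ± 0.07, adjusted p = 0.00268). Ppp1r15a encodes GADD34, which brings a phosphatase to eIF2 and so restores translation. Its levels were 1.17, 1.18 and 1.42 in vehicle, 1.59, 1.66 and 1.72 at 1 nM, and 1.78, 1.83 and 1.78 at 10 nM. The 3 groups did not overlap. It rose 1.32-fold at 1 nM (log2 0.40 ± 0.08, adjusted p = 0.0121) and 1.45-fold at 10 nM (log2 0.54 ± 0.08, adjusted p = 0.00212), and the 1 nM call ended without 1 nM replicate 3 (adjusted p = 0.0548).

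Atf3, a stress-induced repressor and activator, had levels of -2.92, -2.73 and -2.38 in vehicle, -2.14, -2.26 and -2.08 at 1 nM, and -2.19, -2.34 and -2.05 at 10 nM. The treated arrays lay above vehicle, by a narrow margin over vehicle replicate 3. It rose by 0.52 and 0.48 (SE 0.15, adjusted p = 0.0384 and 0.042). The calls ended without any of 7 arrays at 1 nM and 8 at 10 nM (up to 0.128 and 0.134), and also under the slide block (0.0834 and 0.155).

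The arm of ATF4 targets held the largest changes of the 36 genes, in both directions. At 1 nM 7 of 12 tested genes fell and 1 rose, and at 10 nM 9 fell and 1 rose, where 11.8% and 14.7% of all genes fell. The median changes were -0.29 and -0.35, beside -0.09 and -0.11 over all genes. The uptake gene Slc7a11 was the member not measured.

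Trib3, a pseudokinase induced by ATF4 and CHOP that damps AKT and ATF4 signalling, had levels of 1.70, 1.28 and 1.64 in vehicle, 0.09, -0.21 and 0.00 at 1 nM, and 0.23, 0.00 and 0.27 at 10 nM. The lowest vehicle array was above the highest treated array by a wide gap. It fell 2.99-fold at 1 nM (log2 -1.58 ± 0.14, adjusted p = 0.000149) and 2.6-fold at 10 nM (log2 -1.38 ± 0.14, adjusted p = 0.000223). Leaving out any 1 array kept the 1 nM change between -1.71 and -1.49 and the 10 nM change between -1.51 and -1.29. Under array median scaling the changes were -1.09 and -0.85 and not called (adjusted p = 0.0583 and 0.102), and without vehicle replicate 3 in that scaling -1.43 and -1.19 (adjusted p = 0.000457 and 0.00103).

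Vldlr, a lipoprotein receptor that ATF4 can induce, went the other way. Its levels were 0.89, 1.18 and 0.66 in vehicle, 2.46, 2.60 and 2.52 at 1 nM, and 2.85, 2.89 and 2.86 at 10 nM. The 3 groups formed 3 separate ranges. It rose 3.06-fold at 1 nM (log2 1.61 ± 0.13, adjusted p = 7.66e-05) and 3.89-fold at 10 nM (log2 1.96 ± 0.13, adjusted p = 1.8e-05). A second probe gave 1.46 and 1.74.

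Phgdh catalyses the entry step of serine synthesis. Its levels were 4.03, 3.87 and 4.22 in vehicle, 3.45, 3.53 and 3.61 at 1 nM, and 3.21, 3.24 and 3.25 at 10 nM. The 10 nM arrays were the lowest and the groups did not overlap. It fell 1.42-fold at 1 nM (log2 -0.51 ± 0.10, adjusted p = 0.00775) and 1.75-fold at 10 nM (log2 -0.81 ± 0.10, adjusted p = 0.000569). Its other 2 probes gave -0.38 and -0.31 at 1 nM and -0.70 and -0.66 at 10 nM. Under array median scaling the changes of Phgdh were -0.02 and -0.28 and not called. Without vehicle replicate 3 in that scaling they were -0.32 and -0.58 (limma adjusted p = 0.208 and 0.0246). Psat1, the next enzyme of the same pathway, had a change of -0.23 ± 0.10 at 1 nM (adjusted p = 0.17), called without vehicle replicate 2 (-0.34, adjusted p = 0.0167), and fell by 0.35 ± 0.10 at 10 nM (adjusted p = 0.0383), a call lost without any of 8 arrays (up to 0.115), as also under the slide block (0.077).

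Shmt2 and Mthfd2, the mitochondrial enzymes that turn serine into one-carbon units, fell at both doses. Shmt2 had levels of 1.82, 1.93 and 1.94 in vehicle, 1.56, 1.48 and 1.70 at 1 nM, and 1.53, 1.55 and 1.60 at 10 nM. Its treated arrays lay below vehicle, and it fell by 0.32 and 0.34 (SE 0.08, adjusted p = 0.0207 and 0.0129). The 1 nM call of Shmt2 ended without 1 nM replicate 1 or 2 (adjusted p of 0.0635 to 0.0834). Mthfd2 fell by 0.27 and 0.34 (SE 0.07, adjusted p = 0.036 and 0.0105), with the 1 nM call lost without any of 8 arrays (up to 0.119), as also under the slide block (0.0658).

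Slc7a5 and Slc3a2 encode the light and heavy chains of LAT1, the exchanger that brings in leucine and other large amino acids. Slc7a5 had levels of 0.79, 0.77 and 0.49 in vehicle, 0.13, 0.16 and 0.10 at 1 nM, and -0.14, -0.17 and -0.14 at 10 nM. Its 3 groups did not overlap, with 10 nM lowest. It fell 1.47-fold at 1 nM (log2 -0.55 ± 0.09, adjusted p = 0.0035) and 1.78-fold at 10 nM (log2 -0.83 ± 0.09, adjusted p = 0.00031), and a second, dimmer probe gave -0.47 at both doses, not called. With the mean of both probes the 1 nM change was -0.51 and not called (adjusted p = 0.0634). Under array median scaling the changes of Slc7a5 were -0.06 and -0.30 and not called. Without vehicle replicate 3 in that scaling they were -0.55 and -0.79 (limma adjusted p = 0.0271 and 0.00309). Slc3a2 had levels of 3.64, 3.54 and 3.46 in vehicle, 3.41, 3.40 and 3.32 at 1 nM, and 3.25, 3.21 and 3.16 at 10 nM. Again the 10 nM arrays were lowest. Its change was -0.17 ± 0.07 at 1 nM (adjusted p = 0.137), and it fell by 0.34 ± 0.07 at 10 nM (adjusted p = 0.00878).

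Asns, asparagine synthetase, had levels of 4.49, 4.26 and 4.55 in vehicle, 4.02, 4.09 and 4.19 at 1 nM, and 4.06, 4.09 and 4.09 at 10 nM. The treated arrays lay below vehicle, closest to vehicle replicate 2. It fell by 0.33 and 0.35 (SE 0.09, adjusted p = 0.0342 and 0.0225), with the calls lost without any of 8 arrays at 1 nM (up to 0.105) and 4 at 10 nM (up to 0.0691). Sesn2, a leucine sensor that restrains mTORC1, had levels of 0.82, 0.86 and 0.80 in vehicle, 0.46, 0.31 and 0.15 at 1 nM, and 0.45, 0.31 and 0.23 at 10 nM. All treated arrays were lower. It fell 1.43-fold and 1.41-fold (log2 -0.52 and -0.50, SE 0.10, adjusted p = 0.00671 and 0.00638). Under array median scaling its changes were -0.03 and 0.03 and not called. Without vehicle replicate 3 in that scaling they were -0.44 and -0.37 (limma adjusted p = 0.0496 and 0.0648).

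Cars, the cysteinyl-tRNA synthetase, had changes of 0.09 and 0.10 (adjusted p = 0.356 and 0.266). Chac1, which degrades glutathione and is a marker of the ATF4 and CHOP branch, had levels of 3.52, 2.82 and 3.48 in vehicle, 2.88, 3.09 and 3.17 at 1 nM, and 3.24, 3.34 and 3.33 at 10 nM. The vehicle arrays spanned the treated ones, with vehicle replicate 2 the lowest of all. Its changes were -0.23 (95% interval -0.66 to 0.21) and 0.03 (-0.41 to 0.47), and without vehicle replicate 2 Chac1 passed at 1 nM (log2 -0.45, adjusted p = 0.0199). Of the 4 tested targets with a C/EBP-ATF element, Trib3 and Asns fell, Vldlr rose and Chac1 passed at neither dose. Of the 6 with a window but no such element, 4 fell at 1 nM and 6 at 10 nM.

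**Figure D4:**
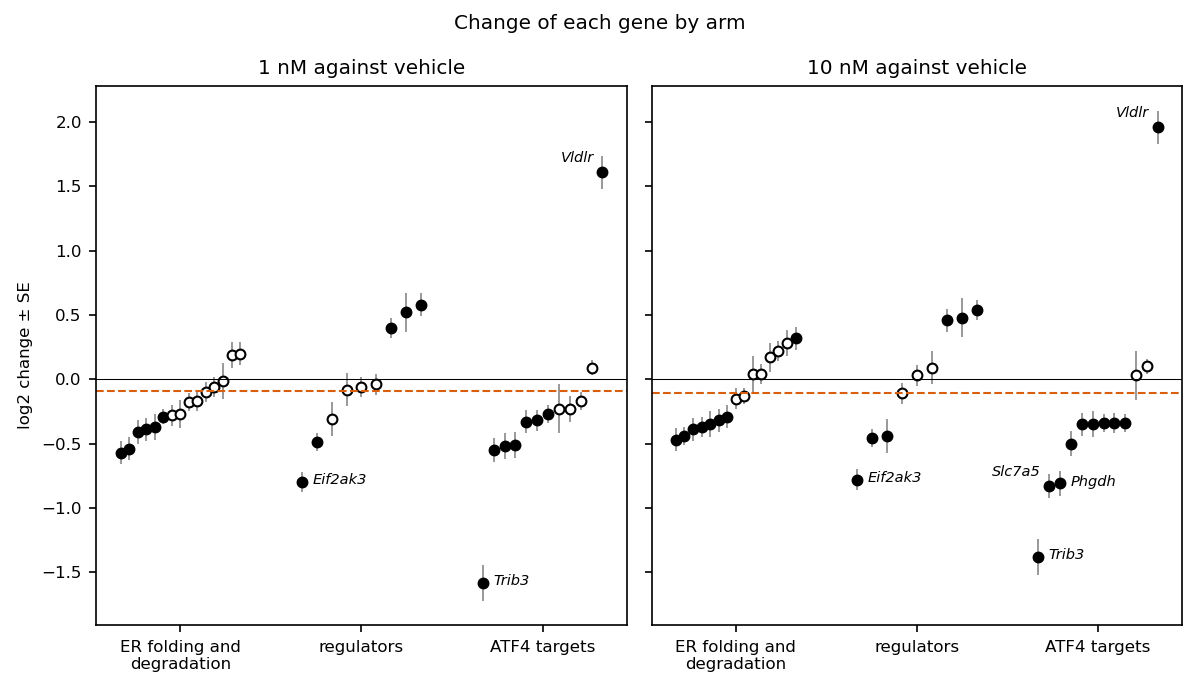
Log2 change of each of the 36 genes against vehicle at 1 nM (left) and 10 nM (right) by arm, sorted within the arm, with SE bars; filled points passed the test, open points did not, and the dashed line is the median over all genes tested (-0.09 and -0.11). Most filled points lie between -0.8 and 0.6, with Trib3 below and Vldlr above them.

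The rule also called for a comparison of the ER chaperones with the ATF4 targets. Per array, the median of the ER arm relative to the vehicle mean was 0.03, 0.05 and -0.09 in vehicle, -0.30, -0.21 and -0.21 at 1 nM, and -0.20, -0.13 and -0.18 at 10 nM. The median of the ATF4 arm was 0.06, -0.02 and 0.06 in vehicle, -0.35, -0.31 and -0.23 at 1 nM, and -0.37, -0.34 and -0.37 at 10 nM. In both arms all treated arrays lay below all vehicle arrays. The median over all genes tested was -0.01, -0.07 and 0.06 in vehicle, -0.06, -0.08 and -0.10 at 1 nM, and -0.01, -0.09 and -0.18 at 10 nM, so on 10 nM replicate 3 the ER median equalled that of all genes, and on 10 nM replicate 2 the values were -0.13 and -0.09. The ER median minus the ATF4 median was -0.03, 0.07 and -0.15 in vehicle, 0.05, 0.10 and 0.02 at 1 nM, and 0.17, 0.21 and 0.19 at 10 nM. The 1 nM arrays overlapped vehicle, and the 10 nM arrays lay above both other groups. This is a description of chosen lists and was not tested.

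**Figure D5:**
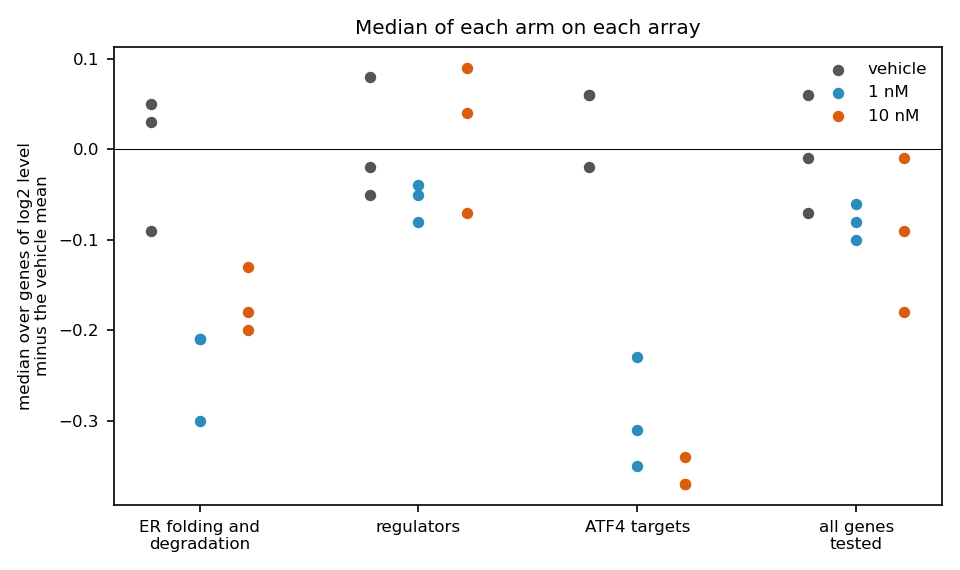
Median over the genes of each arm, and over all genes tested, of the log2 level minus the vehicle mean, 1 point per array (grey vehicle, blue 1 nM, orange 10 nM). At 10 nM the ATF4 targets lie between -0.37 and -0.34 and the ER genes between -0.20 and -0.13.

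The arrays fell into 3 sets by the scan time in the file headers, called slides here, though no slide label was read. Slide 1 held vehicle replicates 1 and 2 and the first replicate of each dose. Slide 2 held vehicle replicate 3, 1 nM replicates 2 and 3 and 10 nM replicate 2, and slide 3 held 10 nM replicate 3 alone. With slide as a term in the fit, 18 of the 36 genes passed at 1 nM and 20 at 10 nM, where 4825 and 5611 of all 21995 did. Within slide 1 the ER median was -0.30 at 1 nM and -0.27 at 10 nM and the ATF4 median -0.32 and -0.34. Within slide 2 the ER median was -0.15 and -0.12 and the ATF4 median -0.35 and -0.39. Over all genes the medians were 0 and 0.09 within slide 1, and -0.15 and -0.15 within slide 2. Within slide 2 the ER arm was thus not lower than all genes. The regulators' median was 0.08 and -0.06 within slide 1 and -0.22 and -0.24 within slide 2. The change of Trib3 was -1.40 and -1.26 within slide 1 and -1.75 and -1.65 within slide 2, that of Vldlr 1.42 and 1.82, and 1.90 and 2.24, and that of Eif2ak3 -0.81 and -0.80, and -0.85 and -0.76. These are among the largest changes of the 36 genes, and some smaller ones differed by slide. At 10 nM, Atf3 stood at 0.63 within slide 1 and 0.04 within slide 2, and Ddit3 at 0.25 and -0.24. Xbp1 stood at -0.73 and -0.25, and Hsp90b1 at -0.38 and -0.12. Within a slide the spread rests on 1 pair of arrays of the same group, and a lone array is assumed to vary alike.

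Between the doses, 0 of the 36 genes passed limma's test, where 3.81% of all genes did, 1.6% higher and 2.21% lower, and 8 had an unadjusted p under 0.05. The groups did not overlap for 15 of the 36, where 24% of all genes did not. The median difference, 10 nM minus 1 nM, was 0.03, beside -0.01 over all genes, and by arm it was 0.09 for ER folding and degradation, 0.01 for the regulators and -0.02 for the ATF4 targets. A missed threshold does not show that the doses act alike, and the intervals show what differences remain possible. The log2 difference was 0.44 for Creld2 (95% interval 0.18 to 0.69, adjusted p = 0.0889) and 0.32 for Sdf2l1 (0.14 to 0.50, adjusted p = 0.0827). For Phgdh it was -0.30 (-0.53 to -0.07, adjusted p = 0.216), for Slc7a5 -0.28 (-0.49 to -0.07, adjusted p = 0.208) and for Edem1 -0.26 (-0.42 to -0.09, adjusted p = 0.125). For Vldlr it was 0.34 (0.05 to 0.64, adjusted p = 0.291) and for Hspa5 0.16 (0.02 to 0.30, adjusted p = 0.28). The intervals of Eif2ak3 (0.01, from -0.18 to 0.21) and Trib3 (0.20, from -0.13 to 0.53) included 0. Without vehicle replicate 3, which enters only through the shared estimate of the spread, Creld2 and Slc7a5 passed (adjusted p = 0.0377 and 0.03). Without vehicle replicate 2 Creld2 passed (0.0435), and with the trend and robust priors Creld2 and Sdf2l1 did (0.035 and 0.0457). In a limma fit over single probes, the other 2 probes of Phgdh passed (differences of -0.33 and -0.35, limma adjusted p = 0.0475 and 0.0322).

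Further lists give the rest of the pathway. Beside their counts stand the shares of all genes tested, 11.8% higher and 11.8% lower at 1 nM and 15.4% higher and 14.7% lower at 10 nM, and the all-gene medians of -0.09 and -0.11. Of 38 other genes of ER folding, translocation and export, 13 fell and 0 rose at 1 nM, and 12 fell and 1 rose at 10 nM (34.2% called at each dose). Their medians were -0.18 and -0.13, the second close to that of all genes. Pdia5, a disulfide isomerase, fell 2.8-fold and 3.6-fold (log2 -1.49 and -1.85, SE 0.07), Ero1a, the oxidase that recharges disulfide isomerases, 2.28-fold and 2.48-fold (log2 -1.19 and -1.31, SE 0.10), and Sec24d, a coat protein of ER export, 1.66-fold and 1.7-fold (log2 -0.73 and -0.76, SE 0.09). Fkbp14, a prolyl isomerase, fell by 0.63 and 0.92 (SE 0.09). Between the doses Pdia5 was 0.36 lower at 10 nM (log2 -0.36, adjusted p = 0.038), the single gene of this list to pass.

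Of 29 other targets of ATF4 and CHOP, 15 fell and 5 rose at each dose (69% called), with medians of -0.45 and -0.37. The equal counts cover partly different genes, and 3 genes passed between the doses, named here after their values were seen. Ddit4, which restrains mTORC1, fell by 0.86 at 1 nM and had a change of 0.00 at 10 nM (difference 0.85, adjusted p = 0.00116). Nupr1, a stress-induced nuclear protein, rose by 0.32 and by 0.79 (difference 0.46, adjusted p = 0.0192), and Slc43a1, an amino acid transporter, rose by 0.31 at 1 nM and had a change of -0.24 at 10 nM (adjusted p = 0.0518; difference -0.55, adjusted p = 0.00868). Mthfd1l, a mitochondrial one-carbon enzyme, fell 3.03-fold and 3.62-fold (log2 -1.60 and -1.86, SE 0.08), and Aldh1l2, which works in the same pathway, 3.2-fold and 4.33-fold (log2 -1.68 and -2.11, SE 0.11). Cebpd, a C/EBP transcription factor, rose 3.63-fold at both doses (log2 1.86, SE 0.08). Ero1a belongs to this list too and is counted in both.

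Of 19 aminoacyl-tRNA synthetases other than Cars, many of them known ATF4 targets, 1 rose and 0 fell at 1 nM (5.26% called), and 4 rose and 1 fell at 10 nM (26.3%), where 23.6% and 30.1% of all genes were called. The medians were -0.01 and -0.06. Farsb rose by 0.30 at 1 nM and 0.26 at 10 nM (SE 0.07), Gars by 0.46 (SE 0.06) and Dars by 0.45 (SE 0.12) at 10 nM, and Sars fell by 0.27 (SE 0.08) at 10 nM. Between the doses Gars was the gene of this list to pass (0.30, adjusted p = 0.0386). Of 21 other components of the integrated stress response, such as eIF2 subunits, its exchange factor and its kinases, 4 rose and 0 fell at 1 nM (19% called), and 5 rose and 1 fell at 10 nM (28.6%), with medians of 0.07 and 0.13. The shares called in these last lists were below those of all genes, so the counts are no result about either list. Impact, an inhibitor of the kinase GCN2, rose by 0.50 at 1 nM (SE 0.11, adjusted p = 0.0142), and Eif2ak4, GCN2 itself, by 0.37 at 10 nM (SE 0.09, adjusted p = 0.0152). Eif2b3 and Eif2b4, subunits of the exchange factor that eIF2 phosphorylation inhibits, rose by 0.29 and 0.28 at 1 nM and by 0.29 and 0.32 at 10 nM.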

How the data were processed

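Per the file headers, the deposited scanner files of 9 1-colour arrays give processed signal, mean signal and background as linear intensity, and the kind of each spot (control, outlier, saturated, above background or not) as other values, 0 or 1. The scans were read by Agilent Feature Extraction 11.5.1.1; the submitters' processing notes name it, and limma with no version. A deposited series table of log2 values was an alternative only. Its columns correlated at 0.9999 with values made here by normexp correction (offset 50) and quantile normalization.

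Levels are log2 of the processed signal minus the array's 75th percentile. Without control spots, each array had 43020 spots of 39429 probes, and spots marked as non-uniform were then left out on the array that marked them. Probes had to be well above background in all 3 samples of some group (28342 probes, 71.9%), and the brightest such probe stood for a gene. Probes lie on the mm9 build of the files; promoter windows are those of GRCm38.p6, and no coordinates were converted. Groups were compared in 1 fit of all 9 arrays without a block (lmFit and eBayes of limma 3.58.1, run under R 4.3.3), with Benjamini-Hochberg adjustment over 21995 genes and a threshold of 0.05. The number of arrays limits the precision. The fit was tried on simulated arrays with independent noise. These held no scaling step, no outlying array and no slide effect, so they do not bear on how the calls depend on those. The members and lists were chosen with earlier results of these data known. All members are named; of each further list up to 4 called genes with the smallest adjusted p against vehicle could be, and genes called between the doses were added after their values were seen.

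Deviations of same-numbered 1 nM and 10 nM arrays from their group means correlated at 0.484, 0.329 and 0.144 across genes. Among differently numbered arrays, 10 nM replicate 2 with 1 nM replicate 3 gave 0.307, and the others ran from -0.469 to 0.003. The arrays behind 0.484, 0.329 and 0.307 each shared a slide, so pairs by number were not told apart from slides. The labels name no pairs, and the main fit did not take equal numbers as pairs. No pair of arrays was a duplicate: the SD of log2 differences was 0.262 for the closest pair. Alternatives covered background correction, scaling, the probe filter and choice, the spread model, array weights, stricter thresholds and leaving out each array. Blocks for replicate and for slide, as told from scan times, were also used.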

Additional observations from a re-analysis of the deposited data

How the results depend on the processing

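The number of arrays, 3 per group, limits what could be called. Under array median scaling 23 called changes turned in sign, none of them called there: at 1 nM Hspa5 (0.20), Hsp90b1 (0.10), Calr (0.08), Pdia3 (0.12), Atf5 (0), Asns (0.16), Shmt2 (0.17) and Mthfd2 (0.22), and at 10 nM Hsp90b1 (0.21), Calr (0.24), Pdia3 (0.18), Pdia4 (0.14), Pdia6 (0.16), Manf (0.06), Edem1 (0.09), Xbp1 (0.09), Atf5 (0.07), Asns (0.18), Psat1 (0.18), Shmt2 (0.19), Mthfd2 (0.19), Slc3a2 (0.19) and Sesn2 (0.03). That scaling gave 1 and 3 calls among the 36 at 1 nM and 10 nM, where 1513 and 2532 of all 21995 genes were called. The same scaling without vehicle replicate 3, chosen after seeing the data, gave 8 and 8, where 3636 and 5452 of all genes were. At 1 nM the medians were 0.22, 0.43 and 0.20, then -0.14, 0.13 and -0.18, for the ER, regulator and ATF4 arms. At 10 nM they were 0.38, 0.56 and 0.18, then -0.08, 0.15 and -0.21. The cause of the difference was not tested.

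The count of calls among the 36 genes at 1 nM, 19, was 30 with array weights, 11 at an adjusted p of 0.01 and 3 with a 1.5-fold minimum. Of the 21995 genes tested, 5188 were called in the main fit, and 11509, 3092 and 2722 under these settings. With each array left out, 12 to 19 of the 36 were called, the lowest without 1 nM replicate 3 (3506 of all genes). At 10 nM the count, 24, was 14 with only the groups compared, 12 at 0.01 and 5 with the fold minimum. All genes called were 6622 in the main fit, then 4933, 4339 and 3674. With each array left out, 16 to 22 of the 36 were called, the lowest without 10 nM replicate 2 (5116 of all genes). With the fold minimum the share of the 36 was below that of all genes at both doses. Between the doses the count, 0, was 1 in the submitters' table, 1 with the mean of kept probes and 2 with trend and robust priors. It was 6 with array weights, 3 with only the groups compared and 0 to 2 with each array left out. All genes called were 837 in the main fit and 368 of 23434 in the submitters' table, then 764, 1032, 1887 and 1351 in the other named settings.

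The medians at 1 nM were -0.20, 0.09 and -0.36 for the ER, regulator and ATF4 arms with quantile normalization, and the same in the submitters' table; the ER median was -0.21 with the mean of kept probes, the ATF4 median -0.34 with array weights, and the regulator median 0.08 within slide 1. Within slide 2 they were -0.15, -0.22 and -0.35. At 10 nM they were -0.25, 0.10 and -0.44 with quantile normalization and in the submitters' table, -0.27 and -0.06 for the ER and regulator arms within slide 1, and -0.24 and -0.39 for the regulators and ATF4 targets within slide 2. Array weights gave -0.21 for the ER and -0.42 for the ATF4 arm, and the mean of kept probes -0.06 for the regulators. The all-gene medians at 1 nM and 10 nM moved too. They were 0.09 and 0.09 with quantile normalization, 0.06 and 0.06 in the submitters' table, and -0.05 and -0.07 with array weights. With the mean of kept probes they were -0.10 and -0.13, within slide 1 0 and 0.09, and within slide 2 -0.15 and -0.15. With each array left out the ER, regulator and ATF4 medians ran from -0.28 to -0.21, -0.11 to 0.03 and -0.38 to -0.26 at 1 nM, and from -0.22 to -0.12, -0.01 to 0.08 and -0.39 to -0.32 at 10 nM. These causes were not tested.

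With the replicate number as a block, 17 genes passed at 1 nM (Asns and Mthfd2 lost, limma adjusted p = 0.0512 and 0.073). At 10 nM 23 passed (Psat1 lost, 0.0777), and between the doses 0 did. The block treats equal numbers as pairs, which the labels do not name. Deviations of same-numbered vehicle and 1 nM arrays from their group means correlated at 0.053, -0.021 and -0.008. For vehicle and 10 nM the values were -0.186, -0.193 and -0.42. Deviations from the mean of so small a group depend on each other, so these values cannot decide whether equal numbers mark pairs. No other call changed under the block.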
